A study of Mus musculus with 6 samples.

Results

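Carboxylesterases are serine hydrolases of the endoplasmic reticulum that cleave esters and amides, among them drugs, acylglycerols and cholesteryl esters. Hepatocytes are among the cells richest in these enzymes, and in mice tandem duplication has expanded the family into neighbouring genes on chromosome 8. Some members act on stored triglyceride that feeds very low density lipoprotein, others act mainly on foreign compounds, and one is secreted into blood plasma.

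The genes described here are 10 carboxylesterases (Ces1b, Ces1c, Ces1d, Ces1e, Ces1f, Ces1g, Ces2a, Ces2e, Ces3a and Ces3b) out of 54532 genes in the deposited table, taken by gene name. The table holds 20 carboxylesterase genes in all, so 10 others were not listed. The genes were chosen by their FPKM in these same knockout and control livers, so differences of the 10 genes between the groups are given as a description, and the counts of them that a fit across all genes calls are not a test of them. Whole livers of 3 untreated Notch1fl/fl mice, the controls, were compared with those of 3 untreated mice labelled Hepatocyte Notch1 KO. Both groups come from a study of Notch1 in hepatic thrombopoietin production, and the sources used here do not give the driver of the deletion, the strain, sex or age. Levels are FPKM (read fragments divided by gene length and by a scale for each library), so levels of different genes can be set side by side.

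The libraries held 15612924 to 17511961 reads in genes. Notch1 measured 0.618, 0.965 and 0.854 FPKM in controls 1 to 3 and 0.301, 0.540 and 0.292 in knockouts 1 to 3, with every knockout below every control, and its difference did not pass the threshold (limma adjusted p = 0.257). Whole liver RNA also holds cells other than hepatocytes, and in such samples fewer cells of a type and less RNA per cell cannot be told apart. The 7 of 8 hepatocyte markers matched by name summed to 49801 to 57849 FPKM in controls and 36922 to 47639 in knockouts, without overlap. Of the lists for other cells, mesothelial markers (5 of 5 with a mean of at least 0.5 FPKM) summed to 5.30 to 49.3 in controls and 80.7 to 135 in knockouts, and bile duct markers (4 of 5) to 12.8 to 16.1 and 23.6 to 32.7, with Krt19 on both lists. Macrophage, sinusoidal endothelial and stellate sums overlapped between the groups. Adipocytes, enterocytes, kidney and pancreas also express carboxylesterases or ester hydrolases. Of their markers, 1 of 6, 1 of 5, 0 of 5 and 2 of 5 reached a mean of 0.5 FPKM, and Lep, Lct, Aqp2, Kap, Slc12a1 and Prss1 were listed at 0 in each liver. The adipocyte sum, 1014 to 1347 in controls and 304 to 513 in knockouts, came almost entirely from Car3, which hepatocytes also make. The enterocyte and pancreas sums overlapped between the groups, and the kidney sum was 0.0120 to 0.292 in controls and 0.452 to 0.594 in knockouts. The part of these differences in the carboxylesterase values was not tested.

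The 20 genes lie in a pair of clusters on chromosome 8 of GRCm38. The first, from 93020214 to 93535830, holds 9 carboxylesterase genes on the minus strand, 6 of them among the 10 described. The second, from 104734003 to 105150109, holds 11 genes on the plus strand, 4 of them among the 10. Coding sequences of the 10 genes, 1662 to 1713 bases long and read from 12 to 14 exons in the GENCODE M21 models, were aligned in 45 pairs. Pairs within a subfamily (Ces1, Ces2 or Ces3, 17 pairs) were 72.0% to 95.3% identical, and pairs between subfamilies (28 pairs) 53.9% to 58.6%. The closest pair was Ces3a and Ces3b at 95.3%, followed by Ces1b and Ces1c at 88.7% and Ces2a and Ces2e at 83.1%.

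**Figure D1:**
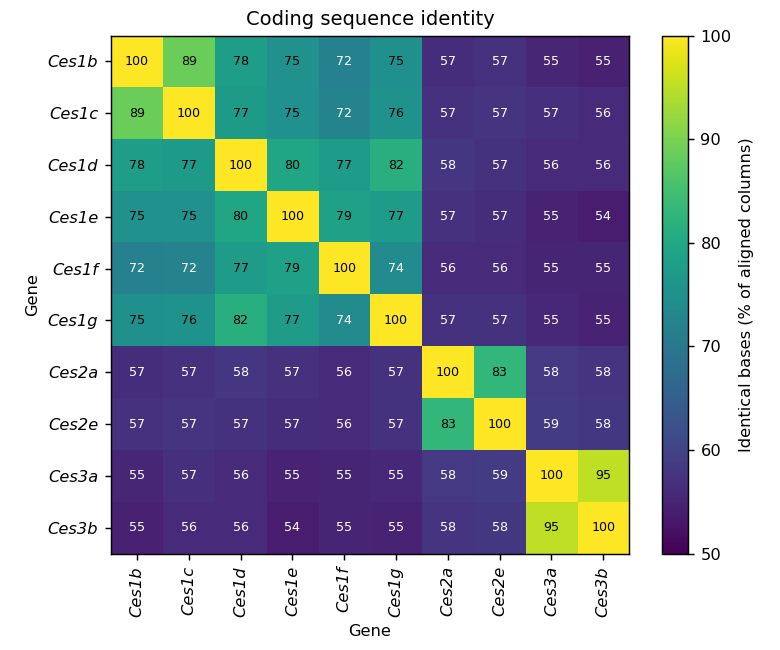
Identity of coding sequences between the 10 carboxylesterases, as percent of aligned columns (colour and printed number, rows and columns are genes). The blocks along the diagonal are the Ces1, Ces2 and Ces3 subfamilies, where identity was 72.0% to 95.3%, against 53.9% to 58.6% outside them.

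Closeness limits how well reads can be assigned. Of the 50-base words in the transcripts of Ces3a and of Ces3b, 25.6% and 26.2% also occurred in the other gene of this pair. For Ces2a 17.3% of the words occurred in other genes, most of them in the pseudogene Gm7208, and for Ces1c and Ces1b 13.0% and 11.6%, most of them shared between this pair. The share was 0.903% to 3.30% for Ces1d, Ces1e, Ces1f, Ces1g and Ces2e. The sources used here do not give the read length or how reads matching several genes were counted, so the split of reads within the pairs Ces3a and Ces3b, and Ces1b and Ces1c, is uncertain. The split between Ces2a and Gm7208 is uncertain for the same reason.

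RefSeq start regions (GRCm38.p6) were found for 7 of the 10 genes, and Ces1d, Ces1f and Ces3a had no entry. The pair Ces1b and Ces1c is shown because these are the genes whose levels overlapped between the groups, as described below, and because their 250 bases before the start had the highest alignment score of the 21 pairs. RefSeq gives Ces1b a pair of starts, and the 21 pairs were scored with the upstream one, at 93080017. The downstream one lies 77 bases inside the deposited gene, so part of the region before it falls within the deposited gene model. From the downstream one, at 93079940, the region aligned with that of Ces1c over 246 columns with 84.6% identity, and from the other over 160 columns with 85.6%. The sequences run 5′ to 3′ on the minus strand, at chr8:93079941-93080190 and chr8:93131284-93131533, and the capitals mark the longest run the genes share, 58 bases.
Ces1b: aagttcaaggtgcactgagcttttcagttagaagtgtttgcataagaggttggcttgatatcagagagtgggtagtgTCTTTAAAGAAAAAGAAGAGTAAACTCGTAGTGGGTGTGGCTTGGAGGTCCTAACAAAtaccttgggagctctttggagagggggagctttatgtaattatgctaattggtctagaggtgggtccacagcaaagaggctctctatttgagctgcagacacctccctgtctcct
Ces1c: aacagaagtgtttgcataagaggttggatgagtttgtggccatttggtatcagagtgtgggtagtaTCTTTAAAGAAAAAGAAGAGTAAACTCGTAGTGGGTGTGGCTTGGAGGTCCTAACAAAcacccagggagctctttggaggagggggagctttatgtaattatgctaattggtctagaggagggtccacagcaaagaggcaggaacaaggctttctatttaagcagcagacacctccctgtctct

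The start regions of Ces1g and Ces3b are shown because 1 of the motifs searched was found in them, and it is in capitals. Ces1g lies at chr8:93337210-93337459 on the minus strand and Ces3b at chr8:105083505-105083754 on the plus strand. The letters TATAAA (the TATA box) were searched on both strands and begin 26 bases before the start of Ces1g, as its reverse complement, and 30 bases before that of Ces3b. This RefSeq start of Ces1g, at 93337209, lies 99 bases inside the deposited gene, so the match falls within the deposited gene model.
Ces1g: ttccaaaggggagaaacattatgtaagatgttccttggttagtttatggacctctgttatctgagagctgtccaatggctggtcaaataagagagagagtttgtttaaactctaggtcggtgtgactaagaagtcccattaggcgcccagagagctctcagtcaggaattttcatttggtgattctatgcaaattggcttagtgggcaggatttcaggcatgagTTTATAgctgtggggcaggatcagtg
Ces3b: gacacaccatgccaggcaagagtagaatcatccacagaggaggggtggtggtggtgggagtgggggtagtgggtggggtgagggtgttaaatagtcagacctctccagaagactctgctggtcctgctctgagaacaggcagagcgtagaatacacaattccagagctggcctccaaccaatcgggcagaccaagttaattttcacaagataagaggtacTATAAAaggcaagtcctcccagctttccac

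TATAAA occurred in 2 of the 7 regions and in 12.4% of 32851 RefSeq regions of the same length. The letters TTCNNNGAA (a STAT site), CAAAGTC (part of an HNF4 site) and TGTTTAC (a FOXA site), searched on both strands, occurred in 0 of the 7 regions and in 7.02%, 3.84% and 3.17% of all regions. These matches describe letters in 250 bases only.

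In control livers the 10 genes spanned 29.6 to 840.0 FPKM, and together they made up 0.523% to 0.586% of all FPKM, against 0.400% to 0.475% in the knockouts. Ces1c was highest, followed by Ces3a, Ces1d, Ces3b and Ces2a, each of which lay above the next in every control. Ces1f and Ces1g overlapped in the controls, as did Ces2e and Ces1e, and Ces1b was lowest. In the knockouts the ranges of Ces3b and Ces2a overlapped, as did those of Ces1g and Ces2e, Ces2e and Ces1e, and Ces1e and Ces1b.

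The mean of each of the 10 genes was lower in the knockouts, where 51.4% of the 12022 genes averaging 0.5 FPKM or more had a lower mean. For 8 of the 10 every knockout lay below every control in FPKM as deposited, which held for 10.6% of those genes. Overlap was not recounted with other scalings, where it need not be the same. For 0 of the 10 did every knockout lie above every control, against 9.20% of those genes, and Ces1b and Ces1c overlapped between the groups. Ratios of knockout to control mean ran from 0.477 for Ces1g to 0.964 for Ces1b. In the fit across all genes the median log2 difference of the 10 was -0.64, against -0.0081 for all genes. That fit (limma, Benjamini-Hochberg) called 0 of the 10 genes at an adjusted p under 0.05 and 0.0250% of all genes (3 of 12022). Limma voom on recovered reads called 1 of the 10, and 11 genes of the table. At an unadjusted p under 0.05 the limma fit without voom called 8 of the 10 and 13.9% of all genes. Nothing is read from these counts because the same values chose the genes. With the replicate number as a block, 0 genes of the table passed in place of 3. Without control 3 there were 58 and without knockout 2 there were 29, while without control 1, control 2 or knockout 1 there were 1, 0 and 0.

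**Figure D2:**
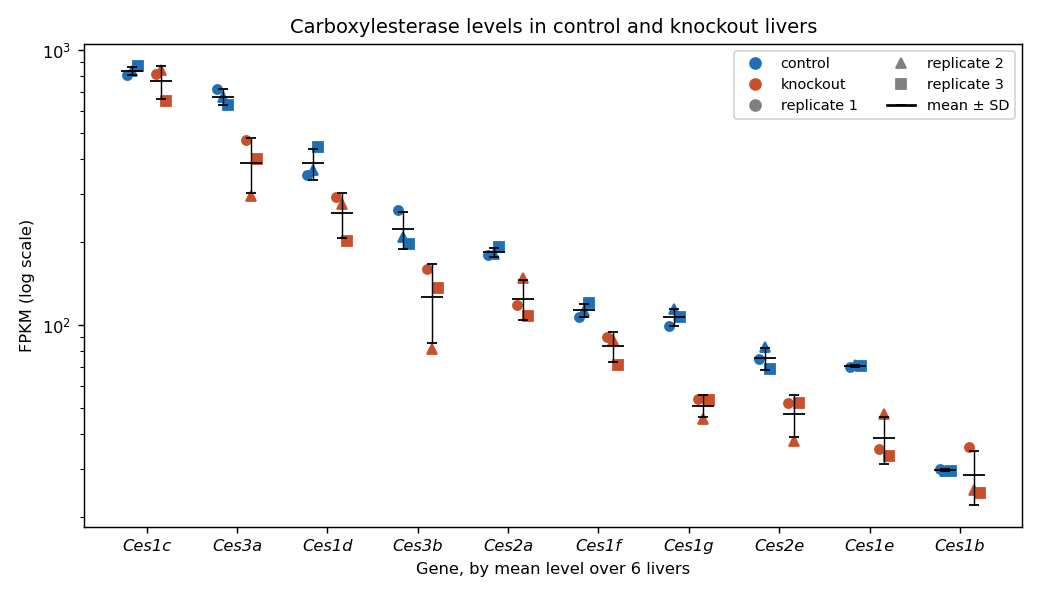
FPKM (log axis) of each of the 10 carboxylesterases in 3 control livers (blue) and 3 knockout livers (red), with marker shapes for replicate numbers and black bars for mean ± SD (n = 3). The knockout points lie below all control points except for Ces1c and Ces1b.

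The Ces1 genes of the first cluster spanned the widest range of ratios, 0.477 to 0.964, against 0.625 to 0.677 for Ces2 and 0.566 to 0.577 for Ces3. Gene identifiers and positions on chromosome 8 follow the deposited table. Ces1g (ENSMUSG00000057074, 93302369 to 93337308), a lipid hydrolase that acts in hepatic triglyceride handling, measured 99.2, 114 and 107 FPKM in controls 1 to 3 and 53.8, 45.3 and 53.3 in knockouts 1 to 3. All knockouts lay far below the lowest control, and the means were 107 ± 7.31 and 50.8 ± 4.77 FPKM (SD, n = 3), a ratio of 0.477. Leaving out any 1 liver gave ratios of 0.461 to 0.503, the narrowest range among the 8 genes without overlap. The reads behind each value numbered 1922 to 4354.

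Ces1e (ENSMUSG00000061959, 93201218 to 93229619), egasyn, holds beta-glucuronidase in the endoplasmic reticulum. It measured 70.3, 71.6 and 71.1 FPKM in the controls and 35.5, 47.3 and 33.5 in knockout livers. The controls had a coefficient of variation of 0.911%, and knockout 2 was the highest of the knockouts. The ratio of means was 0.546, from 71.0 ± 0.647 to 38.8 ± 7.49 FPKM. Gusb, which encodes beta-glucuronidase itself, measured 6.95, 5.96 and 6.36 FPKM in the controls and 6.57, 6.96 and 5.84 in knockout livers (limma adjusted p = 0.987, log2 difference 0.0062, SE 0.10), so its groups overlapped.

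Ces1d (ENSMUSG00000056973, 93166068 to 93197838) is the triacylglycerol hydrolase that mobilizes stored triglyceride for lipoprotein assembly. Its levels were 350.4, 365 and 444 FPKM in the controls and 290.5, 274 and 201 in knockout livers. The highest knockout stayed below the lowest control, but control 3 was high and knockout 3 low, and the ratio of 0.660 moved between 0.615 and 0.731 when 1 liver was left out. Ces1f (ENSMUSG00000031725, 93256236 to 93279747), a related hydrolase, measured 107, 112 and 119.7 FPKM in the controls and 90.5, 88.4 and 71.5 in knockout livers. Its ratio, 0.739, was the nearest to 1 of the 8 genes without overlap.

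Ces1c (ENSMUSG00000057400, 93099015 to 93131283) encodes the carboxylesterase that the liver secretes into plasma, the most abundant of the 10 genes. It measured 812, 839 and 869.8 FPKM in the controls and 813, 844 and 650.0 in knockout livers. Knockouts 1 and 2 lay inside the range of the controls and knockout 3 below it. The ratio was 0.916, and 0.987 without knockout 3. Ces1b (ENSMUSG00000078964, 93056728 to 93080017), its nearest relative, measured 29.9, 29.4 and 29.5 FPKM in the controls and 35.9, 25.2 and 24.5 in knockout livers. Knockout 1 lay above and knockouts 2 and 3 below all controls, and the ratio was 0.964. The place of each liver was read from FPKM as deposited and need not be the same with other scalings. The sign of both differences turned with the scaling. On the log2 scale Ces1c was -0.14 and Ces1b -0.07 as deposited, 0.0072 and 0.07 with total reads scaling, and Ces1c 0.08 with quantile normalization. With limma voom on recovered reads they were 0.0076 and 0.07, where the median of all genes moved by 0.14, and relative to that median they stood at -0.13 and -0.07. Ces1b was also above 0 without knockout 2 (0.0048) or knockout 3 (0.02). Total reads scaling raised the median of all genes by 0.11, and relative to that median the 2 genes stood at -0.09 and -0.03; with quantile normalization Ces1c stood 0.09 above it.

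Among the Ces2 genes, Ces2a (ENSMUSG00000055730, 104734003 to 104741634), which acts on acylglycerols and drug esters, measured 179, 181 and 192 FPKM in the controls and 118, 148 and 108 in knockout livers. Knockout 2 was the highest knockout, still under each control as deposited, and the ratio was 0.677 (184 ± 6.74 against 124 ± 20.7). Ces2e (ENSMUSG00000031886, 104926260 to 104934672) measured 75.2, 82.9 and 69.0 FPKM in the controls and 51.9, 37.8 and 52.2 in knockout livers. Here knockout 2 was the lowest, and the ratio was 0.625 (75.7 ± 6.93 against 47.3 ± 8.23).

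The Ces3 genes, liver carboxylesterases of the second cluster, lay in the same order across the livers. Ces3a (ENSMUSG00000069922, 105048601 to 105058413) measured 721, 675 and 628 FPKM in the controls and 470.0, 295 and 402 in knockout livers, and Ces3b (ENSMUSG00000062181, 105083753 to 105093929) 262, 209 and 197 against 160, 81.9 and 137. Control 1 was highest and knockout 2 lowest for each. Their ratios were 0.577 and 0.566, and 0.646 and 0.666 without knockout 2. The part of the words shared by this pair in their likeness was not tested. Gm45724, a gene on the other strand inside Ces3a (105051049 to 105051468), held 0 to 9 reads per liver, with 0.952, 1.34 and 1.15 FPKM against 0.478, 0 and 0 (limma adjusted p = 0.120). The sources used here do not say whether counting used strand, so its reads and those of Ces3a cannot be told apart.

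In FPKM as deposited the knockout livers did not share 1 order, and the order was not recounted with other scalings. Among the knockouts, knockout 3 was the lowest for 6 genes (Ces1b, Ces1c, Ces1d, Ces1e, Ces1f and Ces2a) and knockout 2 for 4 (Ces1g, Ces2e, Ces3a and Ces3b). Against the control mean, knockout 2 stood at -1.19 for Ces3a and -1.44 for Ces3b on the log2 scale, and at -0.59 for Ces1e, -0.32 for Ces2a and 0.01 for Ces1c. Knockout 3 stood at -0.75 and -0.71 for the Ces3 genes and at -1.09, -0.77 and -0.37 for the other three. Knockout 2 also differed from the other knockouts outside the family. Hsd3b5, a male-biased liver gene, stood at 193, 14.0 and 106 FPKM in knockouts 1 to 3, where controls ranged from 192 to 243. The acute-phase gene Saa1 stood at 1023, 16.2 and 1596, where controls ranged from 12.8 to 41.9. The part of these in the carboxylesterase values was not tested. Without knockout 2 the same 8 genes had knockouts below all controls, and without knockout 1 Ces1b joined them, making 9.

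**Figure D3:**
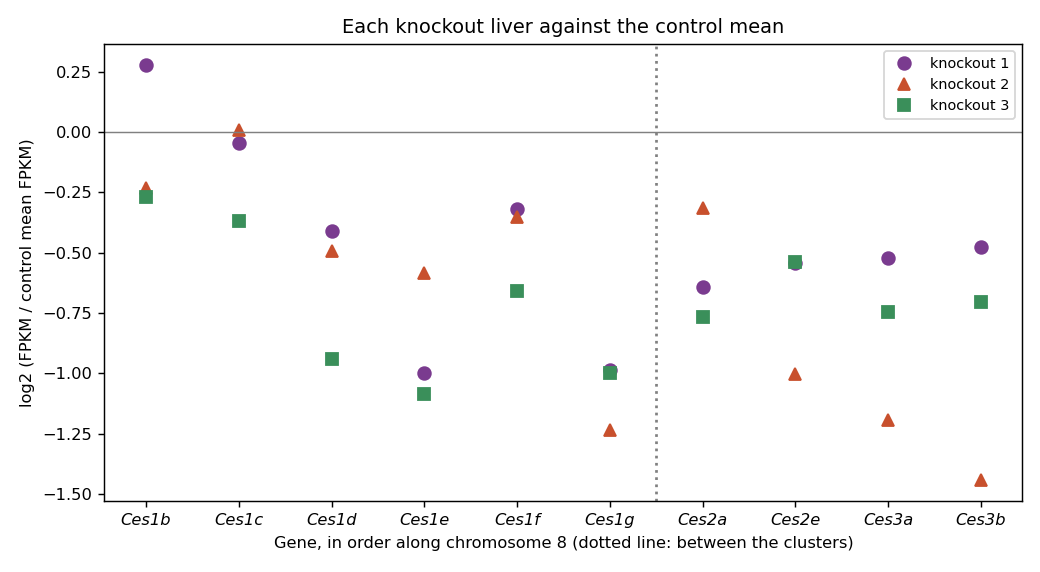
Log2 ratio of FPKM in each knockout liver to the mean of 3 controls, for the 10 carboxylesterases in their order along chromosome 8, with the clusters divided by a dotted line. Knockout 2 (triangles) is lowest for Ces1g, Ces2e, Ces3a and Ces3b, and knockout 3 (squares) for the other six.

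The coefficient of variation between livers was larger in the knockouts for each of the 10 genes, where it was larger for 55.2% of all genes tested. The SD itself was larger in the knockouts for 8, the exceptions being Ces1d and Ces1g. Coefficients of variation ran from 0.812% (Ces1b) to 15.4% (Ces3b) in the controls and from 9.39% (Ces1g) to 31.7% (Ces3b) in the knockouts.

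Summed over the 10 genes, the controls held 2705, 2679 and 2726 FPKM and the knockouts 2119, 1887 and 1733. The controls lay close together, and each knockout lay below all of them. The means were 2703 ± 23.8 and 1913 ± 195 FPKM, a ratio of 0.708, and leaving out 1 liver gave 0.669 to 0.741. Without Ces1c the ratio was 0.614. By subfamily the ratio was 0.793 for Ces1, 0.662 for Ces2 and 0.574 for Ces3. In FPKM as deposited no knockout sum reached a control sum in any of these. For the subfamilies this was not recounted with other scalings, where it need not hold.

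The make-up of the sum differed as well. Ces1c made up 30.0%, 31.3% and 31.9% of it in the controls, against 38.4%, 44.8% and 37.5% in knockouts. Ces1b made up 1.09% ± 0.0111 and 1.48% ± 0.188, again without overlap. The share of Ces1g was 3.94% ± 0.292 in controls and 2.67% ± 0.357 in knockouts, and that of Ces1e 2.63% ± 0.0406 and 2.04% ± 0.427, each with all knockouts below the controls. Shares of the other six (Ces1d, Ces1f, Ces2a, Ces2e, Ces3a and Ces3b) overlapped between the groups.

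**Figure D4:**
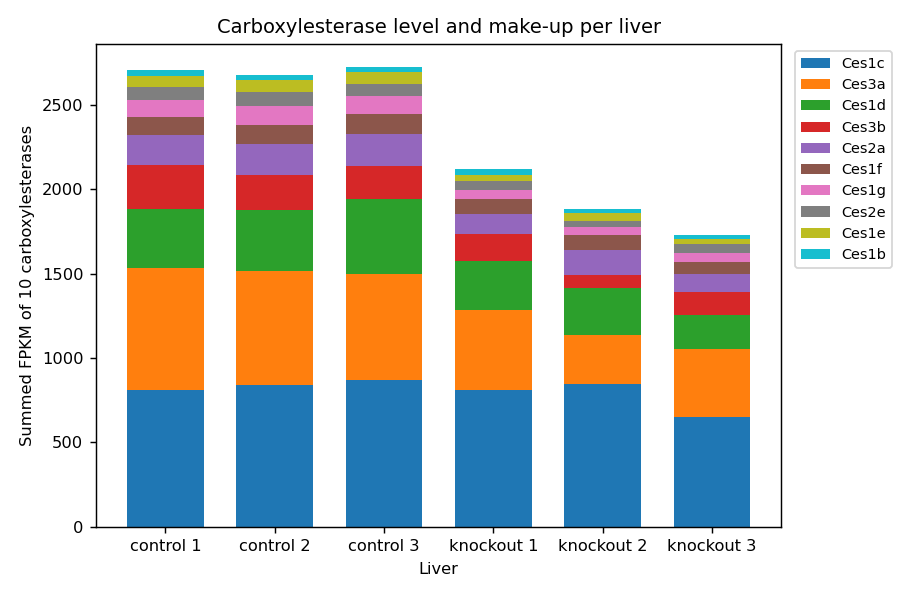
Summed FPKM of the 10 carboxylesterases in each liver, stacked by gene. The control bars reach 2679 to 2726 FPKM and the knockout bars 1733 to 2119, and the lowest segment, Ces1c, keeps a similar height in 5 of the 6 livers.

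Of the 10 carboxylesterase genes outside the list, 4 had a mean of at least 0.5 FPKM and were tested. All 4 had a lower knockout mean, 1 (Ces2g) had all knockouts below all controls, and 0 passed the threshold (limma; 1 at an unadjusted p under 0.05, and 0 by limma voom on recovered reads). Among all genes tested, 51.4% had a lower mean, 10.6% lay below all controls and 13.9% had such a p. The median log2 difference of the 4 was -0.58, and -0.31 without knockout 2 or -0.88 without knockout 3. Ces2g measured 12.2, 12.2 and 11.9 FPKM in the controls and 8.89, 8.25 and 8.71 in knockout livers. The groups were well apart, with a log2 difference of -0.44 (SE 0.08, limma adjusted p = 0.112, and 0.104 to 0.323 under the alternatives). Ces2c, an acylglycerol hydrolase, measured 36.3, 18.4 and 20.9 FPKM in the controls and 19.3, 4.88 and 29.9 in knockout livers (adjusted p = 0.646), and 36.1% of its 50-base words occurred in other genes. Ces2b (5.71, 1.19 and 1.68 against 1.14, 0.0146 and 1.36) and Ces4a (3.64, 1.26 and 1.73 against 1.84, 0.533 and 1.51) also overlapped. Ces2c, Ces2b and Ces4a shared the pattern of the Ces3 genes in that control 1 was highest and knockout 2 lowest. The pseudogene Ces2d-ps measured 0.212 to 0.904 FPKM. Ces1a and Ces2h had at most 6 reads in any liver and Ces1h at most 1, and Ces5a and Ces2f were listed at 0.

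The genes beside and between the carboxylesterases given here, averaging 0.5 FPKM or more, did not pass the threshold. Beside the first cluster lay Lpcat2 (0.691 ± 0.111 against 0.799 ± 0.129 FPKM). The second cluster lay between Fam96b (13.9 ± 3.02 against 17.8 ± 4.65) and Cbfb (5.84 ± 0.487 against 5.31 ± 0.602). Each of these 3 overlapped between the groups, with limma adjusted p of 0.771, 0.541 and 0.676. Inside the clusters Gm45727, a pseudogene between Ces1e and Ces1f, had 3 to 8 reads and overlapped. Gm45724, inside Ces3a and described above, had 0 to 9 reads, with every knockout below every control.

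Other hydrolases of esters and neutral lipids were read from a list of 25 genes, of which 23 were tested. None passed (0 called by limma, 0 by limma voom on recovered reads, 6 at an unadjusted p under 0.05), 20 had a lower knockout mean, and 7 had all knockouts below all controls. The shares of all genes tested were 13.9%, 51.4% and 10.6%. The median log2 difference was -0.19, and -0.06 with total reads scaling or -0.09 with limma voom on recovered reads, which stood at -0.16 and -0.22 relative to all genes. Lipc, hepatic lipase, measured 95.0 ± 11.5 FPKM in controls and 62.0 ± 8.94 in knockouts (adjusted p = 0.165). Abhd6, a monoacylglycerol lipase, measured 16.3 ± 0.885 against 11.6 ± 0.760 (0.131), and Bche, butyrylcholinesterase, 15.9 ± 0.875 against 11.5 ± 2.27 (0.266). Aadac, an arylacetamide deacetylase of the endoplasmic reticulum that shares substrates with carboxylesterases, measured 546 ± 55.2 against 417 ± 69.9 (0.348). Nceh1, a relative of Aadac that cleaves cholesteryl ester, measured 10.4 ± 2.33 against 5.97 ± 2.41 (0.324), and Pon1, a paraoxonase carried on plasma lipoproteins, 287 ± 29.0 against 195 ± 58.1 (0.293).

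Among 16 tested genes of lipoprotein assembly, into which triglyceride freed by Ces1d is thought to pass, 11 had a lower knockout mean and 0 passed (limma, and 0 by limma voom on recovered reads), with 1 at an unadjusted p under 0.05, against 51.4% and 13.9% of all genes tested with a lower mean and such a p. The median log2 difference was -0.20, and -0.06 with quantile normalization. It was -0.07 with total reads scaling and -0.08 with limma voom on recovered reads, or -0.17 and -0.21 relative to all genes. Mttp, which loads lipid onto apolipoprotein B, measured 43.9, 38.9 and 45.1 FPKM in the controls and 33.9, 28.8 and 36.0 in knockout livers (adjusted p = 0.259). Every knockout lay below every control. Apob measured 349 ± 38.1 against 281 ± 55.3 (0.468), and Cideb, a lipid droplet protein needed for lipoprotein lipidation, 23.6 ± 3.70 against 18.4 ± 2.53 (0.376). Dgat2, Apoc3 and Apoe had ratios of 0.891, 0.833 and 0.852, with no overlap. With Mttp, 4 of the 16 had all knockouts below all controls, against 10.6% of all genes tested.

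Regulators of drug-metabolizing genes were read from 16 genes, of which 11 had a lower knockout mean and 0 passed (limma, and 0 by limma voom on recovered reads), with 2 at an unadjusted p under 0.05, against 51.4% and 13.9% of all genes tested. Their median log2 difference of -0.06 had no stable sign. It was 0.07 with total reads scaling, 0.08 with limma voom on recovered reads (-0.03 and -0.05 relative to all genes) and -0.02 with quantile normalization. It was 0.01 without control 3, -0.03 without knockout 3, -0.10 without control 1 or control 2 and -0.11 without knockout 1. Of the 16, 2 (Onecut1 and Cebpa) had all knockouts below all controls, against 10.6% of all genes tested. Onecut1 measured 9.64, 4.36 and 13.0 FPKM in the controls and 1.76, 0.934 and 0.498 in knockout livers (limma adjusted p = 0.107). Cebpa measured 163 ± 18.7 against 107 ± 14.5 (0.166). Nr1i2, the pregnane X receptor, measured 28.3 ± 1.33 against 30.6 ± 6.87 (0.844), and Nr1i3, the constitutive androstane receptor, 2.47 ± 0.368 against 1.76 ± 0.435 (0.360). Hnf4a measured 133 ± 15.3 against 125 ± 23.4 (0.840) and Ppara 21.3 ± 4.86 against 21.2 ± 3.62 (0.992). These 4 receptors overlapped between the groups.

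The mean profile of the 10 genes over the 6 livers, after each was centred and scaled on log2(FPKM + 1), was compared with 4983 genes outside the family at 5 FPKM or more. The closest were Cyp2d22 (Pearson r 0.994), Tex264 (0.987), Aldh6a1 (0.986), Col18a1 (0.986) and Mia2 (0.985), as a description over 6 livers that share the group difference and the scaling. Cyp2d22, a cytochrome P450, measured 41.0, 41.2 and 39.3 FPKM in the controls and 26.8, 22.8 and 20.1 in knockout livers, and Aldh6a1, a mitochondrial enzyme of valine breakdown, 64.7, 63.3 and 62.6 against 51.4, 45.3 and 45.0. Within the family the profiles of Ces1f and Ces1d were closest to this mean (0.962 and 0.938) and those of Ces1b and Ces1c farthest from it (0.502 and 0.673).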

How the data were processed

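Liver messenger RNA of 6 mice (3 per group) was measured. The authors deposited FPKM per gene, which per the submitters' processing notes involved HISAT2 2.0.5, featureCounts 1.5.0-p3 and build GRCm38; how FPKM was computed is not given in the sources used here. Deposited gene length, in bases, equalled the summed exons of the GENCODE M21 model for each of the 20 carboxylesterases. FPKM times length fell on whole steps (within 0.1 read) for 100% of values above 0, which gave whole reads per gene. Depth sets precision: 3 reads in 1 kilobase correspond to 0.150 to 0.201 FPKM. The deposited scale did not follow reads in genes alone. Knockouts 1 and 3 held 15612924 and 15807542 reads in genes, but 3 reads in 1 kilobase gave 0.201 and 0.175 FPKM. In knockout 2, with 17511961 reads in genes, the value was 0.150. Columns named KO match the knockout labels. Columns named NC were assigned to the controls by elimination and numbered as in their names (0 columns left over), on which every control value rests.

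Genes averaging 0.5 FPKM or more (12022) were fitted with limma 3.58.1 in R 4.3.3 on log2(FPKM + 1), eBayes with trend, two-sided, Benjamini-Hochberg over all genes, threshold 0.05. The log2 differences on this scale understate those of low genes. Errors are SD over n = 3, or SE where marked. The fit was tested on simulated data. Alternatives covered pseudocount, filter, scaling, limma voom on recovered reads, eBayes settings, a replicate block and leaving out each liver. Deviations from the group means correlated at 0.315, 0.164 and 0.101 for same-numbered livers and -0.254 to 0.110 for others. All same-numbered pairs exceeded 0.1, but so did control 3 with knockout 2 (0.110). The labels do not say that the numbers pair livers, so whether they do is not known. The main fit did not pair the livers, and the replicate block served only as an alternative.

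The genes, gene lists and motifs were chosen with earlier results of these data known. Named genes were the 10 members, every other carboxylesterase, genes flanking the clusters, genes inside them averaging 0.5 FPKM or more, per list the 3 smallest p and those without overlap (up to 6), Gusb and 4 receptors, and the 5 closest profiles. Not every gene this rule names is reported here. Coding identity and shared 50-base words (Biopython 1.88, both strands for words) were added after the files were seen, and protein sequences were not used here.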

Additional observations from a re-analysis of the deposited data

How the results depend on the processing

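Of the 16 alternatives, the number of genes called in the table (3) was 1 with a pseudocount of 0.1, 0 with no filter, 11 with limma voom on recovered reads and 0 with the replicate block, and 0 to 58 when 1 liver was left out; the cause was not tested. The block changed no call among the carboxylesterases or the gene lists. Of the listed carboxylesterases, 8 had a lower knockout level under all 16 alternatives. Ces1b and Ces1c were the exceptions, so the count of 10 with a lower level was 8 with total reads scaling and limma voom on recovered reads and 9 with quantile normalization, without knockout 2 and without knockout 3. The former 2 settings moved the median of all genes by 0.11 and 0.14 on the log2 scale, and 10 of the 10 lay below that median in each. Of the 10, 1 (Ces1g) was among the 11 genes called by limma voom on recovered reads, 2 (Ces1e and Ces1g) were among the 29 called without knockout 2, and 0 were called under the other 14, from which nothing is read since the same values chose the genes. The ratio of summed levels was 0.780 with total reads scaling and 0.778 with quantile normalization. Overlap between groups, the order of livers and the sums by subfamily were read from FPKM as deposited. They were not recounted with other scalings and need not be the same there. Genes of the lists and carboxylesterases outside the 10 gave 0 calls under all 16. With 3 livers a group and 824 to 39326 reads per member and liver, the small number of livers limits these comparisons.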
